A study of Rattus norvegicus with 6 samples.

Results

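The contacts of 1 gene promoter on chromosome 13 with chromosome 18 were described at every EcoRI fragment of rat chromosome 18, in the deposited 4C-seq tables of cardiac endothelial cells. All rows whose first column named chromosome 18 were taken, which gave 25335 fragments of the 759990 fragments scored on the 20 chromosomes other than 13. The rule used position alone and no measured value. The fragments covered 87229863 bases and their median length was 2193 bp. No fragment of chromosome 18 was left out, and each had a state in each of the 6 libraries.

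The libraries came from 2 rat strains, with 3 libraries each. SS/JrHsdMcwi, called SS, is the Dahl salt-sensitive inbred rat. SS-13BN/Mcwi, called SS13BN, has the SS background with chromosome 13, the viewpoint included, replaced by that of the Brown Norway rat. Chromosome 18 was therefore of SS origin in both groups, and the strains were compared to see whether contacts differed on a chromosome that was not itself exchanged. In both groups the cells were at passage 2, came from pooled males and females, and were fixed with 2% formaldehyde for 10 min. The labels name no separate animals or cultures behind the libraries of a strain. Each p-value of the permutation and limma tests therefore rests on differences among these libraries alone, and those may be technical. A check of the cell type against marker genes was not possible, since the tables hold contacts and no expression.

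In 4C-seq, contacts between chromosomes are rarer than contacts along the viewpoint's own chromosome, because each chromosome occupies a territory of its own in the nucleus. Contacts between territories are known to gather in broad zones, with gene-dense, active chromatin meeting active chromatin more often and gene-poor chromatin lying nearer to the nuclear border. Rat chromosome 18 carries genes with roles in vessels and heart, among them Nr3c1, which encodes the glucocorticoid receptor, Pdgfrb and Csf1r, which encode growth factor receptors, Smad2, Smad4 and Smad7 of the TGF-beta pathway, and Gata6, which encodes a transcription factor. All 32 genes of a list of chromosome 18 genes were found on chromosome 18 of the newer RefSeq assembly GRCr8. The tables use the build rn5, and no rn5 annotation was used here, so no gene is placed in a contact zone below and no sequence is printed.

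The state of a fragment was captured, with at least 1 read, or not captured. The captured share on chromosome 18 was 11.5% in SS 1 (2908 fragments), 9.0% in SS 2 (2281 fragments) and 11.2% in SS 3 (2835 fragments). It was 9.03% in SS13BN 1 (2289 fragments), 17.2% in SS13BN 2 (4348 fragments) and 8.05% in SS13BN 3 (2039 fragments). SS13BN 2 captured the most and SS13BN 3 the fewest, so both extremes lay in SS13BN. The shares over all chromosomes other than 13 ran from 8.76% to 17.4% with the same library at each extreme. SS 3 and SS13BN 3 also stood apart in listing chromosome 13 at 0 throughout, and values without both, an alternative chosen after the data were seen, are given where they change a result.

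A slightly smaller share of fragments was captured on chromosome 18 than over the 20 chromosomes other than 13. Relative capture, the captured share on chromosome 18 divided by the library's share over the 20 chromosomes other than 13, was 0.930 in SS 1, 0.901 in SS 2 and 0.941 in SS 3. It was 0.911 in SS13BN 1, 0.985 in SS13BN 2 and 0.918 in SS13BN 3. All 6 libraries lay below 1, and SS13BN 2 lay nearest to it. The mean was 0.931 ± 0.0299 (SD, n = 6), with p = 0.03125 in an exact two-sided sign-flip permutation test, the smallest p that 6 libraries allow. Of the 20 chromosomes, 13 (65.0%) passed the same test in one direction or the other, so a departure from 1 was common. Chromosome 18 held rank 15 of 20 from the highest. Without SS 3 and SS13BN 3 the mean log2 ratio was -0.10, against -0.10 with all libraries, and p was 0.125 in the exact sign-flip permutation test, the smallest that 4 libraries allow.

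**Figure D1:**
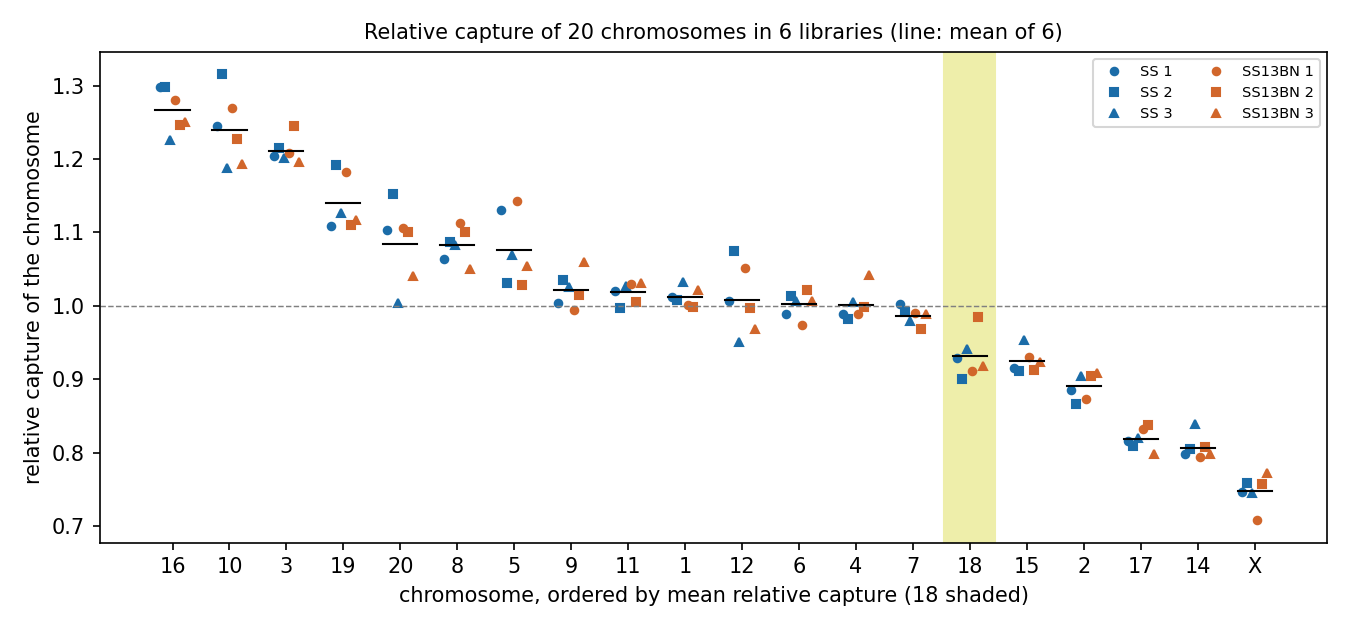
Relative capture (no unit, 1 is the library's overall share) of 20 chromosomes in each of 6 libraries; the line is the mean of 6 libraries and chromosome 18 is shaded. The 6 values of chromosome 18 lie between 0.901 and 0.985, below those of chromosome 16 and above those of chromosome 17.

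The 2 neighbours in number, chromosomes 16 and 17, are of similar size and lay on either side of chromosome 18. Chromosome 16, with 25392 fragments, had a relative capture of 1.27 ± 0.0306 (SD, n = 6), the highest of the 20. Chromosome 17, with 26809 fragments, had 0.818 ± 0.0145 (SD, n = 6). Within libraries, chromosome 18 was captured at 0.735 times the share of chromosome 16, with a log2 difference of -0.44 ± 0.07 (SD, n = 6) and lower values in 6 of 6 libraries (adjusted p = 0.03125, exact sign-flip permutation test). It was captured at 1.14 times the share of chromosome 17, with a log2 difference of 0.19 ± 0.04 (SD, n = 6) and higher values in 6 of 6 libraries (adjusted p = 0.03125, exact sign-flip permutation test). Of the 190 pairs of chromosomes, 155 (81.6%) passed this test unadjusted. Chromosome 18 therefore differed from both, as most pairs did.

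The strains did not differ detectably in how often the promoter reached chromosome 18. SS had a relative capture of 0.924 ± 0.0207 (SD, n = 3), and SS13BN one of 0.938 ± 0.0407 (SD, n = 3). The log2 difference, SS13BN minus SS, was 0.021 (SE 0.039, 95% interval -0.056 to 0.099), with an adjusted p of 0.953 in limma over 20 chromosomes. No chromosome passed (0.0% of 20), and none had an unadjusted limma p under 0.05. The exact permutation test of 3 against 3 libraries gave p = 0.8, where 0.1 is the smallest possible. The sign of the difference rested on SS13BN 2: without that library it was -0.014.

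Of 3 equal segments of the chromosome, the last was captured least in every library. Chromosome 18 was divided by position into 3 segments of equal length, and the captured share of each was set against the library's share on chromosome 18. The first segment, from 1 to 29076621, held 8497 fragments and had 1.09, 1.21 and 1.12 in SS 1 to 3 and 1.14, 1.27 and 1.10 in SS13BN 1 to 3. The middle segment, from 29076622 to 58153242, held 9160 fragments and had 1.06, 1.04 and 1.05 in SS and 1.01, 0.960 and 1.09 in SS13BN. The last segment, from 58153243 to 87229863, held 7678 fragments and had 0.824, 0.716 and 0.798 in SS and 0.826, 0.745 and 0.778 in SS13BN. Every value of the last segment lay below every value of the first and middle segments.

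The captured share of the first segment was 1.48 times that of the last. The log2 difference was 0.57 ± 0.16 (SD, n = 6) and positive in 6 of 6 libraries (adjusted p = 0.03125, exact sign-flip permutation test). The captured share of the middle segment was 1.33 times that of the last, with a log2 difference of 0.41 ± 0.09 (SD, n = 6) and the same p in the same exact test. The first and middle segments differed by 1.12 times, with a log2 difference of 0.16 ± 0.14 (SD, n = 6), also positive in 6 of 6 libraries (adjusted p = 0.03125, exact sign-flip permutation test). This last difference did not hold when fragments were compared within length classes: it was then 0.12, positive in 5 of 6 libraries, with adjusted p = 0.09375 in the exact sign-flip permutation test. A difference between first and last segment at p under 0.05 was common, at 16 of 20 chromosomes (80.0%), and the one of chromosome 18 held rank 6 in size. On chromosome 17 it was larger and ran the same way (log2 0.95 ± 0.12, SD, n = 6), and on chromosome 16 it was -0.01 ± 0.05 (SD, n = 6). Between strains the 3 segments gave exact permutation p-values of 0.6, 0.6 and 0.9, and all 3 were 0.9 after adjustment.

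**Figure D2:**
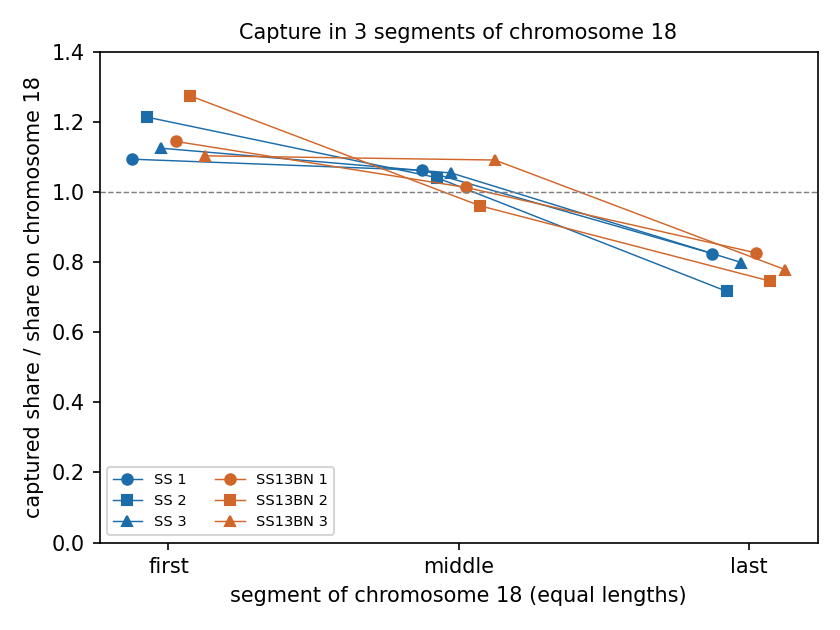
Captured share of the first, middle and last segment of chromosome 18 divided by the library's share on chromosome 18 (vertical axis, no unit), with 1 line per library. Every line ends lower than it starts; the last segment lies between 0.716 and 0.826 in the 6 libraries.

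Along the chromosome, capture rose and fell, in part at the same places in all 6 libraries. In 500 kb windows, where relative capture is again the window's captured share over the library's overall share, the median of 175 windows was 0.912 and the SD between windows was 0.361. Windows above 1.5 made up 8.57% on chromosome 18, 28.3% on chromosome 16 and 8.33% on chromosome 17. Windows below 0.6 made up 17.1% on chromosome 18, 4.44% on chromosome 16 and 29.4% on chromosome 17, against 11.6% over all those windows. The window with the highest mean began at 28500001, and 31 fragments of its 110 were captured in SS 1, 19 in SS 2, 25 in SS 3, 30 in SS13BN 1, 38 in SS13BN 2 and 19 in SS13BN 3. Its relative capture was 2.10 ± 0.363 (SD, n = 6), and no library fell below 1.73; this window was singled out after its values were seen. The rank order of the windows was similar between libraries: Spearman's rho over the 175 windows ran from 0.558 to 0.747 over the 15 pairs, which is a description, since neighbouring windows and the fragment lengths are shared. Its mean was 0.640 over pairs within a strain, 0.708 over the 3 pairs of libraries that carry one number in both strains and 0.655 over the remaining 6 pairs.

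**Figure D3:**
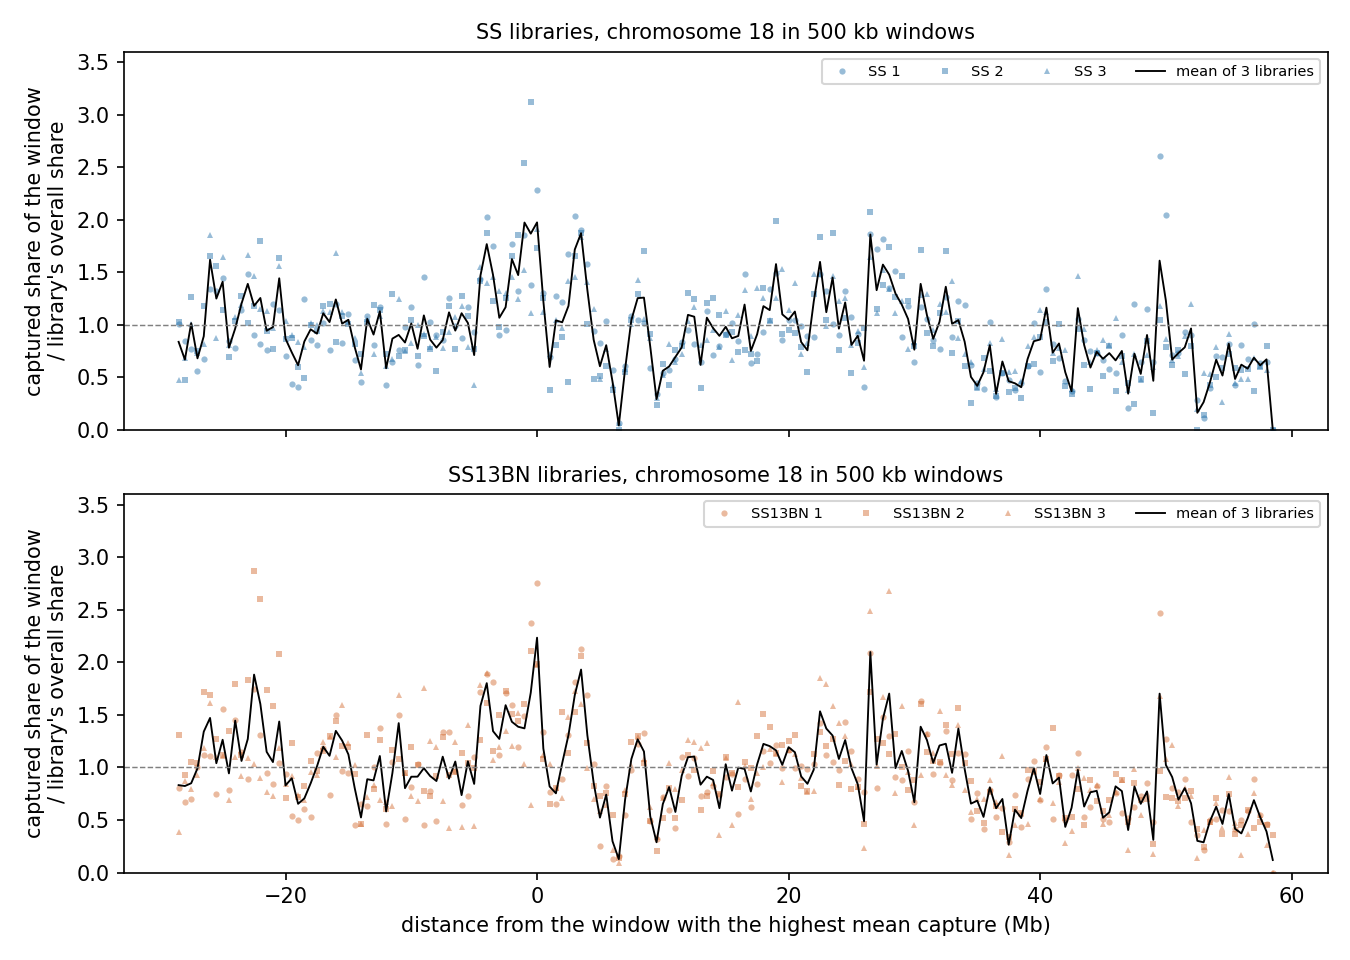
Relative capture (vertical axis, no unit) of 500 kb windows of chromosome 18 against the distance in Mb from the window with the highest mean, for SS (top) and SS13BN (bottom); points are libraries and the line is the mean of 3. Both strains show a zone of high capture around 0 with a mean of 2.10 over the 6 libraries at its top, and low capture towards the right end.

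Few of the 175 windows were called by a binomial rule. A window was called a contact window of a strain where its captured count exceeded what the overall share predicts in all 3 libraries of that strain (exact one-sided binomial test, Benjamini-Hochberg adjusted p under 0.05). The binomial test takes the fragments of a library as independent trials. Captured fragments had captured neighbours (below), so the test serves here as a calling rule only. SS had 1 contact window on chromosome 18, where the rule called 1.86% of the 5332 windows of all 20 chromosomes. SS13BN had 1, where it called 1.58%. No window was called in both strains, where 0.713% of all windows were. Library by library, the same exact binomial test called 11 windows of chromosome 18 in SS 1 (6.29%, against 8.85% of all windows), 9 in SS 2 (5.14% against 6.85%) and 4 in SS 3 (2.29% against 5.36%). It called 8 in SS13BN 1 (4.57% against 8.36%), 19 in SS13BN 2 (10.9% against 12.1%) and 2 in SS13BN 3 (1.14% against 3.26%). In each library the share was below that of all windows, and the libraries numbered 3 had the fewest calls of their strain. Of the 175 windows, 144 were called in no library (82.3%, against 80.0% of all windows), 20 in 1 library, and 2 in 5 libraries (1.14% against 1.48%). Those called in 1 library alone made up 11.4% of the windows here and 8.81% of all windows.

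The contact window of SS ran from 32000001 to 32500000. It held 128 fragments, of which 30 were captured in SS 1, 24 in SS 2, 28 in SS 3, 27 in SS13BN 1, 46 in SS13BN 2 and 18 in SS13BN 3. Its relative capture was 1.90 ± 0.184 (SD, n = 6), and the lowest value, 1.60, was that of SS13BN 3. The contact window of SS13BN ran from 55000001 to 55500000. It held 87 fragments, of which 20, 18 and 17 were captured in SS 1 to 3 and 18, 26 and 19 in SS13BN 1 to 3. Its relative capture was 1.98 ± 0.309 (SD, n = 6), and the lowest value, 1.64, was that of SS 3. Each of these windows was thus called in 5 of the 6 libraries and missed in 1 library numbered 3 of the other strain. Without SS 3 and SS13BN 3, SS had 3 contact windows (3.71% of all windows were called), SS13BN had 6 (5.23%), and both windows above were called in both strains (2.44%). Set against fragments of the same length class, no window of chromosome 18 was called in SS (1.07% of all windows were), in SS13BN (0.844%) or in both (0.3%). The fragments of the 2 windows were long, with medians of 3014 and 3663 bp against 2193 bp for the chromosome. Whether the calls differ between strains was not tested.

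Depleted windows, the mirror of the contact rule, were looked for after the data were seen. SS had 4 on chromosome 18, where the mirrored rule called 2.68% of all windows, and SS13BN had 4, where it called 2.23%. In both strains 2 windows were called, where 1.89% of all windows were. The first began at 35000001 and was nearly empty: 1, 0 and 1 of its 127 fragments were captured in SS 1 to 3 and 2, 3 and 1 in SS13BN 1 to 3, a relative capture of 0.0857 ± 0.0567 (SD, n = 6). It overlapped a gap of 181 neighbouring fragments, from 34716627 to 35390066 or 673 kb, that no library captured. Their median length was 2105 bp, near that of the chromosome, and 35 of them were shorter than 500 bp. The last whole 100 kb bin before the gap began at 34600001. There 4 of 30 fragments were captured in each SS library and 1, 7 and 2 in SS13BN 1 to 3. The bin from 35300001 holds the gap's upper end. Of its 24 fragments, SS 1 to 3 captured 1, 0 and 1, and SS13BN 1 to 3 captured 1, 3 and 1. All of these lay beyond the gap. In the bin from 35400001, 1 of 26 fragments was captured in SS13BN 1 and 0 in the other 5 libraries. Some capture was thus found directly beyond the upper end, and it was low in the next bin. The gap and its neighbouring bins were singled out after their values were seen.

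The second depleted window began at 38000001 and had another make-up. It held 472 fragments with a median length of 99 bp, the most of any window of chromosome 18, and 100 of them were exactly 92 bp long. Of its 359 fragments shorter than 500 bp, each library captured between 0 and 3. Its 113 fragments of 500 bp or longer were captured at a relative 0.998 ± 0.215 (SD, n = 6). Here the reference was the library's share over all fragments of 500 bp or longer, and the window lay close to it. The longest run of fragments captured in no library, 353 fragments from 37977293 to 38181286, lay here, and 323 of them were shorter than 500 bp. Relative capture of the whole window was 0.291 ± 0.0573 (SD, n = 6), and 0.466 when set against fragments of the same length class. Against that class it was still called depleted in SS but no longer in SS13BN, so the call in both strains was lost.

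The other low windows lay towards the high-coordinate end. The last window, from 87000001, held 64 fragments, of which 4 were captured in SS13BN 2 and 0 in the other 5 libraries. The window from 81000001 had 3, 0 and 2 of 84 fragments captured in SS 1 to 3 and 3, 6 and 1 in SS13BN 1 to 3, a relative capture of 0.233 ± 0.152 (SD, n = 6). The window from 81500001 had 2, 2 and 9 of 141 captured in SS and 3, 6 and 5 in SS13BN, a relative capture of 0.276 ± 0.163 (SD, n = 6). These 3 windows were low in both strains and their libraries overlapped. The second longest fragment of the chromosome, 186981 bp from 81205680, lies in this region and was captured in no library, as were all 5 of the longest fragments, from 51389 to 202662 bp.

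The deposited score describes broader neighbourhoods. For each fragment it counts those captured among 501 neighbours, which spanned a median of 1714 kb here, and sets that count against the captured share of chromosome 18, in units of the binomial SD. Runs with a score of at least 2 in all 6 libraries, joined where less than 250 kb apart, formed 7 stretches. They spanned 6150 kb, or 7.05% of the chromosome. Runs with a score of at most -2 in all 6, joined likewise, formed 10 stretches that spanned 10045 kb, or 11.5%. The spans include the pieces joined over, where the score need not pass in every library. Since the score is set against chromosome 18 itself, high and low here are relative to the chromosome's own share.

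The high stretches clustered in 3 places. Between 24261712 and 29105532 lay 3 of them, of which the longest, from 26121580 to 28377795, held 577 fragments with captured shares of 18%, 21.0% and 16.1% in SS 1 to 3 and 16.5%, 29.5% and 10.1% in SS13BN 1 to 3. Its capture was 1.69 ± 0.374 (SD, n = 6) times the chromosome's share, highest in SS 2 at 2.33 and lowest in SS13BN 3 at 1.25. The stretch from 24261712 to 25706359 had 1.56 ± 0.189 (SD, n = 6), and the short one from 28809873 to 29105532 had 1.76 ± 0.607 (SD, n = 6). The stretch from 31470444 to 32708455, which contains the contact window of SS, varied least among the high stretches, at 1.94 ± 0.165 (SD, n = 6), and none of its libraries lay below 1.79. Farther along, the stretch from 50942905 to 51178911 was the richest at 2.38 ± 0.486 (SD, n = 6) over 64 fragments, and that from 55833141 to 56316084 had 1.48 ± 0.282 (SD, n = 6). The contact window of SS13BN, from 55000001 to 55500000, lay in none of the 7 high stretches.

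The low stretches were longest at the end of the chromosome. The longest, from 81591597 to 85041952, spanned 3450 kb and 1048 fragments. Its captured shares were 7.06%, 5.15% and 6.39% in SS 1 to 3 and 4.87%, 8.30% and 4.39% in SS13BN 1 to 3, which is 0.554 ± 0.0439 (SD, n = 6) of the chromosome's share. The next, from 65648819 to 67260011, had 0.561 ± 0.0866 (SD, n = 6). The stretch from 34370851 to 35767007, around the gap, had 0.384 ± 0.0716 (SD, n = 6), and the stretch that ends the chromosome, from 85944396, had 0.543 ± 0.0768 (SD, n = 6). In the longest stretch and in the one that ends the chromosome, every SS library lay above every SS13BN library relative to the chromosome's share, at 0.586 ± 0.0250 against 0.523 ± 0.0338 and at 0.602 ± 0.0659 against 0.484 ± 0.00673 (SD, n = 3 each). The exact permutation p was 0.1 for both, the smallest that 3 against 3 libraries allow, and 0.8 after adjustment over the stretches.

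A low score is a statement on the neighbourhood and not on the fragment. The low stretch from 75212395 to 75358775, singled out after its values were seen, scored at most -2 in all 6 libraries while its own 50 fragments were captured at 1.62 ± 0.391 (SD, n = 6) times the chromosome's share. Its score counts 250 fragments to either side as well. At both ends the score was also low by construction, since the running window kept its size of 501 where only 251 fragments were left. At the first fragment it ran from -5.96 to -4.70 over the libraries, and from -2.82 to -0.0128 when set against the fragments present, an alternative added after the data were seen. At the last fragment it ran from -7.70 to -4.70, and from -3.70 to -1.68 against the fragments present. With that change the low stretch at the start, from 0 to 626480, was no longer found and the one at the end was.

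The highest score of each library lay in one of 4 places. The tops of SS 1 (8.62 at 31757685) and SS 3 (5.66 at 31873777) lay in one zone, and those of SS 2 (12.0 at 27591635) and SS13BN 1 (8.22 at 27797000) in another. In both zones all 6 libraries scored above 3. The top of SS13BN 3 was 6.84 at 56038961, where the other 5 scored from 3.08 to 5.54. The top of SS13BN 2 was 14.2 at 6927348, where the others scored 0.21, 2.95 and 1.98 in SS 1 to 3, 3.08 in SS13BN 1 and -0.55 in SS13BN 3. This zone was thus high in 1 library above all.

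In some zones single libraries stood apart, as 100 kb bins show. In the region from 6000001 to 7000000, each of the 10 bins had more captured fragments in SS13BN 2 than in any other library. In its first 500 kb, 72 of 144 fragments were captured in SS13BN 2, against 16, 17 and 25 in SS 1 to 3 and 25 and 13 in SS13BN 1 and 3. Relative to the library's share that was 2.87 in SS13BN 2 and 0.90 to 1.75 in the others, so SS13BN 2 stood apart after scaling by depth as well. A second such place, from 78000001 to 78500000, was high in SS 1 (46 of 143 fragments, relative 2.61) and SS13BN 1 (35 fragments, 2.47). SS 2, SS 3 and SS13BN 2 captured 15, 20 and 24 fragments there, a relative 1.05, 1.18 and 0.963, and SS13BN 3 lay between with 21 fragments and 1.68. The 2 high libraries carry the same replicate number, and whether the number bears on this place was not tested. In the bin from 78400001, 15 of 22 fragments were captured in both SS 1 and SS13BN 1, and 4 to 8 in the others. The longest run of captured neighbours in each of these libraries lay there, 9 fragments in SS 1 and 8 in SS13BN 1, sharing the end 78420060. These 2 regions were singled out after their values were seen.

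**Figure D4:**
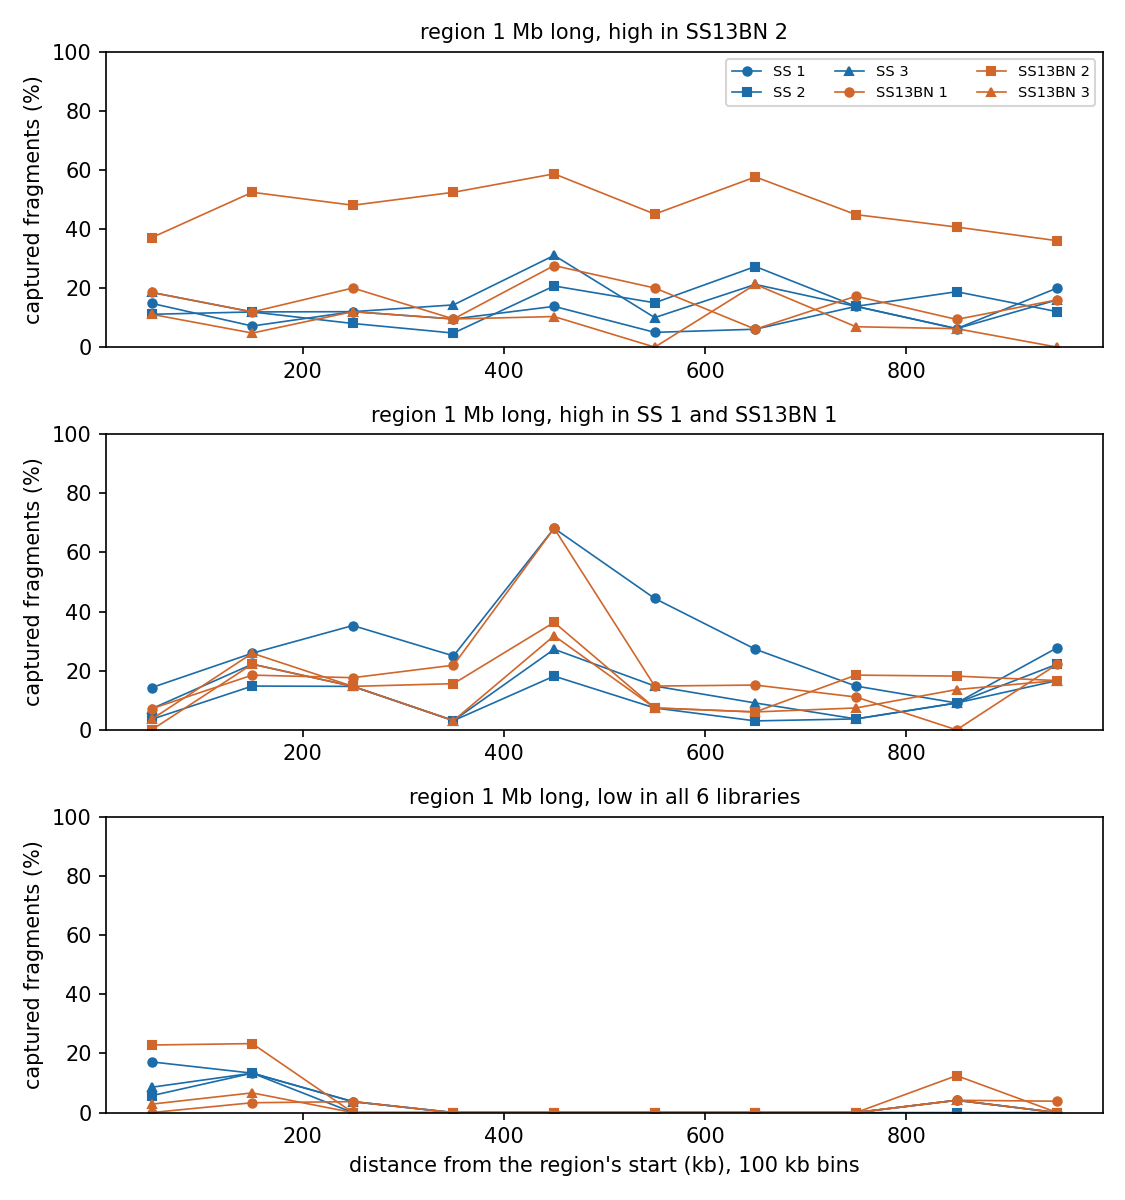
Captured fragments (percent) in 100 kb bins of 3 regions of 1 Mb, with 1 line per library, against the distance from the region's start in kb. The top region is high in SS13BN 2, the middle region has 15 of 22 fragments captured in SS 1 and in SS13BN 1 in its highest bin, and the bottom region, around the gap, has 5 bins with 0 captured fragments in all 6 libraries.

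No window of chromosome 18 differed between the strains in the test over all windows. Of the 174 windows tested here, 0 passed an adjusted p of 0.05 in limma, as did 0.0% of the 5296 windows of all chromosomes, with 0.999 as the smallest limma adjusted p on chromosome 18. Before adjustment, 9 of 174 windows (5.17%) had a limma p under 0.05, where 3.02% of all windows did. The libraries of the strains did not overlap in 15 windows: SS13BN was higher in 8 of 174, where 4.25% of all windows were, and lower in 7, where 3.55% were. The median half-width of the 95% interval was 0.53 on the log2 scale. That is the precision of a typical window before adjustment, and larger differences could also miss the adjusted threshold. Fold changes here are on the log2(scaled captured fragments + 1) scale, which understates changes of low windows.

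In the windows with the smallest unadjusted p, the libraries of the strains mostly overlapped. The window from 17500001 had 12, 9 and 19 captured fragments in SS 1 to 3 and 19, 24 and 19 in SS13BN 1 to 3, and its log2 difference, SS13BN minus SS, was 0.64 (SE 0.26, limma adjusted p = 0.999). SS 3 and SS13BN 2 overlapped there once scaled by depth. The window from 2000001 had a log2 difference of 0.57 and that from 6000001 one of 0.56, both with SS13BN 2 as the highest library; without SS13BN 2 the latter was 0.20. On the other side, the window from 22500001 had 17, 20 and 22 captured fragments in SS and 10, 31 and 6 in SS13BN, a log2 difference of -0.64 (SE 0.27, limma adjusted p = 0.999). The window from 27500001 had a log2 difference of -0.49. That from 43000001 had -0.57 with 19, 21 and 18 captured fragments in SS and 14, 25 and 6 in SS13BN, and of these 6 windows its libraries alone did not overlap between strains after scaling. Single libraries moved these values without turning a sign. With libraries left out, the window from 22500001 ranged from -0.97 without SS13BN 2 to -0.29 without SS 3 and SS13BN 3. That from 27500001 was -0.30 without SS 2 and -0.31 without SS13BN 3, and that from 43000001 was -0.24 without SS13BN 3. Without SS13BN 3 alone, the window from 22500001 was at -0.34 and that from 6000001 at 0.92.

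**Figure D5:**
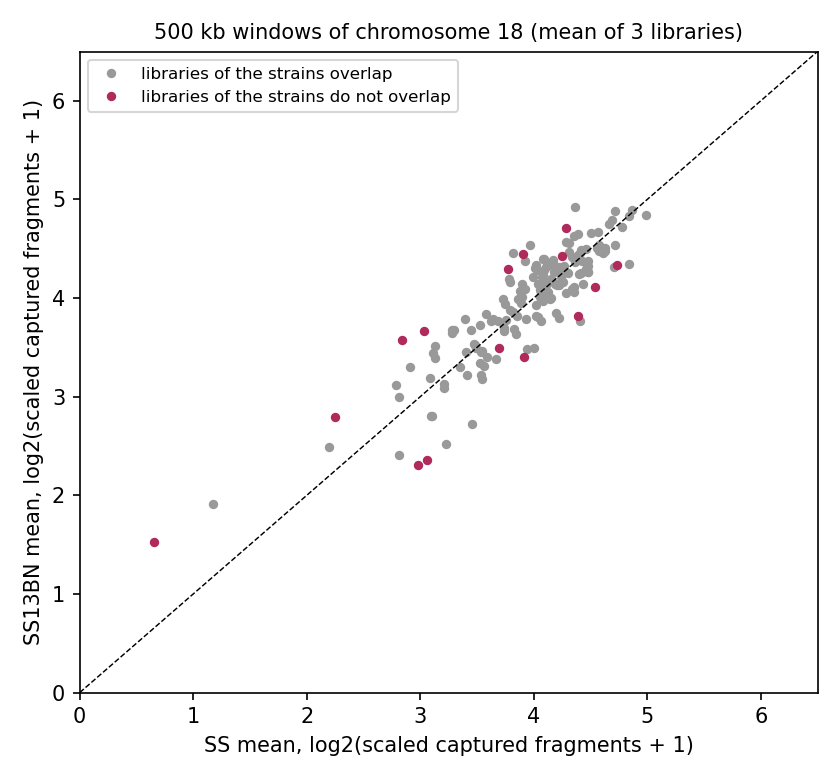
Mean log2(scaled captured fragments + 1) of 174 windows of 500 kb of chromosome 18 in SS (horizontal axis) and SS13BN (vertical axis), each a mean of 3 libraries; the dashed line marks equal values. The windows follow the line, and the 15 coloured windows are those whose libraries do not overlap between strains.

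Single fragments were rarely shared. Of the 25335 fragments, 16129 (63.7%) were captured in no library, 5302 (20.9%) in 1 library and 325 (1.28%) in all 6. Over all chromosomes 63.0% were captured in none and 1.48% in all 6, and the share in all 6 was 1.97% on chromosome 16 and 1.22% on chromosome 17. Fragments captured in more libraries were longer, with a median of 1804 bp for those in none and 5155 bp for those in all 6. The 325 fragments formed 305 runs, of which 286 were single fragments, 18 were pairs of neighbours and 1 was a run of 3. That run, from 32466958 to 32474578, lay in the contact window of SS, which with 8 such fragments held the most of any window, and 33 of the 175 windows held none. Fragments captured in all 3 libraries of one strain and none of the other were few: 17 for SS (0.0671%) and 15 for SS13BN (0.0592%), against 0.0934% and 0.112% over all chromosomes.

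The next longest runs were pairs, and they did not all lie in high zones. The pair from 55217137 to 55274270 lay in the contact window of SS13BN, and its longer fragment is 39857 bp. The pair from 26043912 to 26071048 lay just outside the longest high stretch, with scores from 1.92 to 4.98. The pair from 46849698 to 46876888 had scores from 1.21 to 3.56. The pair from 73390068 to 73405679 was captured in every library although its neighbourhood scored from -3.08 to -1.14. Pairs captured in all 6 libraries thus occurred in poor as well as in rich surroundings.

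Capture rose with fragment length. In 10 classes of length, the mean captured share of chromosome 18 fragments rose from 4.53% ± 1.04 (SD, n = 6) in the shortest class, up to 216 bp, to 16.1% ± 4.61 (SD, n = 6) in the ninth, from 5540 to 8313 bp. It was 15.3% ± 3.80 (SD, n = 6) in the longest class. In each class the captured share was smaller on chromosome 18 than over all chromosomes together, at 0.851 to 0.975 times their share as a mean of 6 libraries. The lower capture of the chromosome as a whole was therefore as large within length classes, where its mean relative capture was again 0.931.

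Captured fragments had captured neighbours. The fragment next to a captured one was captured at 2.00 ± 0.315 (SD, n = 6) times the chromosome's share, from 1.57 in SS13BN 2 to 2.53 in SS13BN 3. One fragment farther the ratio was 1.20 ± 0.0362, at 10 fragments 1.18 ± 0.0654, at 200 fragments 1.08 ± 0.0498 and at 500 fragments 1.05 ± 0.0431 (SD, n = 6). The excess was thus largest between direct neighbours and small but above 1 on average at 1711 kb, the median distance of 500 fragments, with SS13BN 3 at 0.979 there. Fragment length, which also varies along the chromosome, was not held fixed in these ratios.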

How the data were processed

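Each library's deposited table gives a score for every EcoRI fragment. The submitters' processing notes name the build rn5 and CASAVA 1.8. Which aligner or scoring program the authors ran is not given in the sources used here. Coordinates are those of the tables, whose first interval starts at 0, so they may lie 1 base from a browser's. Each score equalled a captured count in 501 fragments minus its expectation, divided by the binomial SD (tolerance 0.0001). Solving this gave captured states, which rebuilt 100.0% of the windows of chromosome 18 in every library. Read numbers cannot be recovered there, so a captured fragment may hold 1 read or many, and a share covers counting of fragments only.

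Strains were compared with limma 3.58.1 in R 4.3.3 (intensity trend) on log2(captured fragments scaled to the mean library total + 1), with 500 kb windows of 20 chromosomes that had a mean of at least 1, Benjamini-Hochberg adjustment over all of them and a threshold of 0.05. The fit was also run on simulated data, which is not used here as a measure of what it could detect in these libraries. Single values were tested with exact two-sided permutation tests over libraries. Length classes were deciles of fragment length. The members, the lists and the rules were chosen with earlier results of these data known. Windows were named as the contact windows, the 5 lowest with at least 50 fragments, the 3 of smallest unadjusted limma p in each direction, the longest score stretches (joined within 250 kb) and the 5 longest runs captured in all 6 libraries; others are said to be singled out. Alternatives are given at the end. Other steps ran in Python 3.11.15 with scipy 1.17.1, pandas 2.3.3, numpy 2.4.6 and matplotlib 3.10.9.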

Additional observations from a re-analysis of the deposited data

Results flagged for a closer look

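Of 23 sets of 6 library values, 2 had a library whose gap to the nearest other was large for the range of the set (Dixon's test at 95%), and chance gives about 1 in 20. In the last window, from 87000001, SS13BN 2 had a relative capture of 0.359, from 4 of 64 fragments, and the other 5 libraries had 0. In the high stretch from 55833141 to 56316084, SS 1 was captured at 2.02 times its share on chromosome 18, and the other 5 libraries at 1.19 to 1.49 times.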

How the results depend on the processing

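Alternatives other than leaving out libraries changed no direction. The log2 difference between first and middle segment weakened to 0.12 within length classes and 0.059 with fragments of 500 bp or longer. Contact windows numbered 0 in SS and 0 in SS13BN within length classes, where 1.07% and 0.844% of all windows were called. The same held at adjusted p 0.01 (0.806% and 0.356% of all) and in 250 kb windows (0.414% and 0.301% of all). With fragments of 500 bp or longer there were 0 in SS13BN (0.919% of all). In 1 Mb windows there were 2, 2 and, in both strains, 1 (2.27%, 2.27% and 1.14%, against 5.81%, 5.26% and 3.28% of all such windows). Depleted windows (4, 4 and 2) numbered 2 in SS13BN and 1 in both within length classes (1.67% and 1.37% of all windows). There were 2 in SS and 2 in SS13BN against the chromosome's own share (2.53% and 2.1% of all) or at adjusted p 0.01 (1.71% and 1.37% of all). With fragments of 500 bp or longer there were 1 in SS, 2 in SS13BN and 1 in both (1.86%, 1.31% and 1.01% of all). In 250 kb windows there were 1 in SS13BN and 1 in both (0.583% and 0.517% of all). In 1 Mb windows there were 7 in SS13BN and 4 in both (7.95% and 4.55%, against 5.07% and 3.5% of all). High stretches numbered 17 without joining and 4 when joined within 1 Mb; low stretches numbered 20 without joining and 6 at a score of 3. The restriction to fragments of 500 bp or longer and all settings of the depleted windows were chosen after seeing the data. The cause was not tested, beyond fewer or more features being tested.

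Leaving out 1 library, or both libraries numbered 3, gave log2 values from -0.12 to -0.094 for the relative capture of chromosome 18, -0.47 to -0.43 against chromosome 16, 0.18 to 0.20 against chromosome 17, 0.11 to 0.21 for first against middle, 0.53 to 0.60 for first against last and 0.38 to 0.43 for middle against last segment. All lost the threshold, because 5 libraries allow no exact p below 0.0625 and 4 none below 0.125. Contact windows ranged from 1 to 3 in SS (2 without SS 2, or 1.14% against 3.08% of all windows, and 3 without SS 3, or 1.71% against 3.71%). In SS13BN they ranged from 1 to 6 (6 without SS13BN 3, or 3.43% against 5.23%). In both strains they ranged from 0 to 2 (2 without SS 3 and SS13BN 3, or 1.14% against 2.44%). Depleted windows ranged from 4 to 6 in SS (6 without SS 2, or 3.43% against 3.68% of all windows, and 6 without SS 3, or 3.43% against 3.21%). In both strains they ranged from 2 to 3 (3 without SS 3 and SS13BN 3, or 1.71% against 2.51%). In SS13BN they ranged from 4 to 8 (8 without SS13BN 1, or 4.57% against 2.91%). The strain difference of chromosome 18 ranged from -0.014 (reversed, without SS13BN 2) to 0.050.

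With replicate number as a block, the strain difference of chromosome 18 was again 0.021 (limma adjusted p = 0.933) and 0 windows passed, with 10 of 174 (5.75%) at an unadjusted p under 0.05, against 3.83% of all windows. Deviations of same-numbered libraries correlated at 0.082 to 0.127 over all windows, on which the fit ran. For the 6 other pairs across strains the range was -0.090 to -0.0086. Over the windows of chromosome 18 alone the 3 values were 0.132, 0.168 and 0.177, against -0.184 to 0.029 for the other 6 pairs. Same-numbered libraries thus gave the higher values in both sets. Within a strain all values were negative, from -0.637 to -0.371 over all windows. The values of different pairs depend on each other, and the gap was not tested. By Spearman's rho the most alike pair shared a number over all windows (SS 2 and SS13BN 2, 0.774) but not on chromosome 18 (SS 3 and SS13BN 2, 0.747). The main fit did not pair same-numbered libraries, the block served as the alternative, and what the number stands for is not given by the labels. Precision is limited by 3 libraries per strain and by windows with few captured fragments.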
